A study of Saccharomyces cerevisiae with 8 samples.

Results

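The 30 probe sets described here measure reading frames of Saccharomyces cerevisiae that still carry only a systematic name and that differed between the strains NFRI 3145 and NBRC 0224. They were chosen from 360 probe sets with such a name, among 5498 probe sets of S. cerevisiae genes in all. The rule asked for a mean log2 signal of NFRI 3145 minus NBRC 0224 of at least 1.5 in size, with the same sign at 0.6% and at 0% AcOH (acetic acid). It also asked for a signal above 100 intensity units on all 4 arrays of the higher strain. Of the 30, 24 were lower and 6 were higher in NFRI 3145. The strain differences of these 30 therefore chose them and are given as a description, with no test.

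RNA of 8 samples was measured on Affymetrix arrays, with 2 arrays in each of 4 groups: NFRI 3145 at 0.6% AcOH, NFRI 3145 at 0% AcOH, NBRC 0224 at 0.6% AcOH and NBRC 0224 at 0% AcOH. The labels call NFRI 3145 tolerant of acetic acid and NBRC 0224 sensitive to it, give 30 degrees for all groups, and give 30 min of exposure for the 0.6% AcOH samples only. Acid and any time or handling that came with it cannot be told apart. The study compared the strains to find a gene related to tolerance of the acid. The labels do not say whether replicates came from separate cultures, so p-values measure the spread between arrays, which may be technical.

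A systematic name is an address: it gives the chromosome, the arm, the place of the gene counted outward from the centromere, and the strand. Frames that keep such a name either have no known function or have a known biochemical activity without an accepted gene name. Some lie in the repeats beside the telomeres, such as the Y′ elements, which encode helicase-like proteins and whose number differs between yeast strains. Array probes follow the reference strain, so a lower signal from a missing or altered copy of a gene cannot be told apart from less transcript.

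Background on an array was the 95th percentile of the 1746 Schizosaccharomyces pombe probe sets on it, 31.5 to 43.9 intensity units. All 30 frames passed the filter for testing, a signal above background on at least 2 of 8 arrays, which was met by 3879 genes. The rule itself forced this. Between 70.4% and 91.3% of the tested genes were above background on an array. Among the 15 mating and haploid genes examined, 8 were tested. Of these, 1 was higher and 2 were lower in NFRI 3145 at 0.6% AcOH, and 0 and 2 at 0% AcOH (limma, adjusted p under 0.05), where 46.1% and 50.2% of all tested genes were called. Their summed signal ran from 504 to 560 units in NFRI 3145 against 534 to 633 in NBRC 0224 at 0.6% AcOH, and from 639 to 679 against 627 to 718 at 0% AcOH. For 12 meiosis and sporulation genes, of which 2 were tested and none was called between the strains, the sums were 223 against 262 to 276 at 0.6% AcOH and 378 to 414 against 239 to 262 at 0% AcOH. The part of either list in the differences below was not tested.

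**Figure D1:**
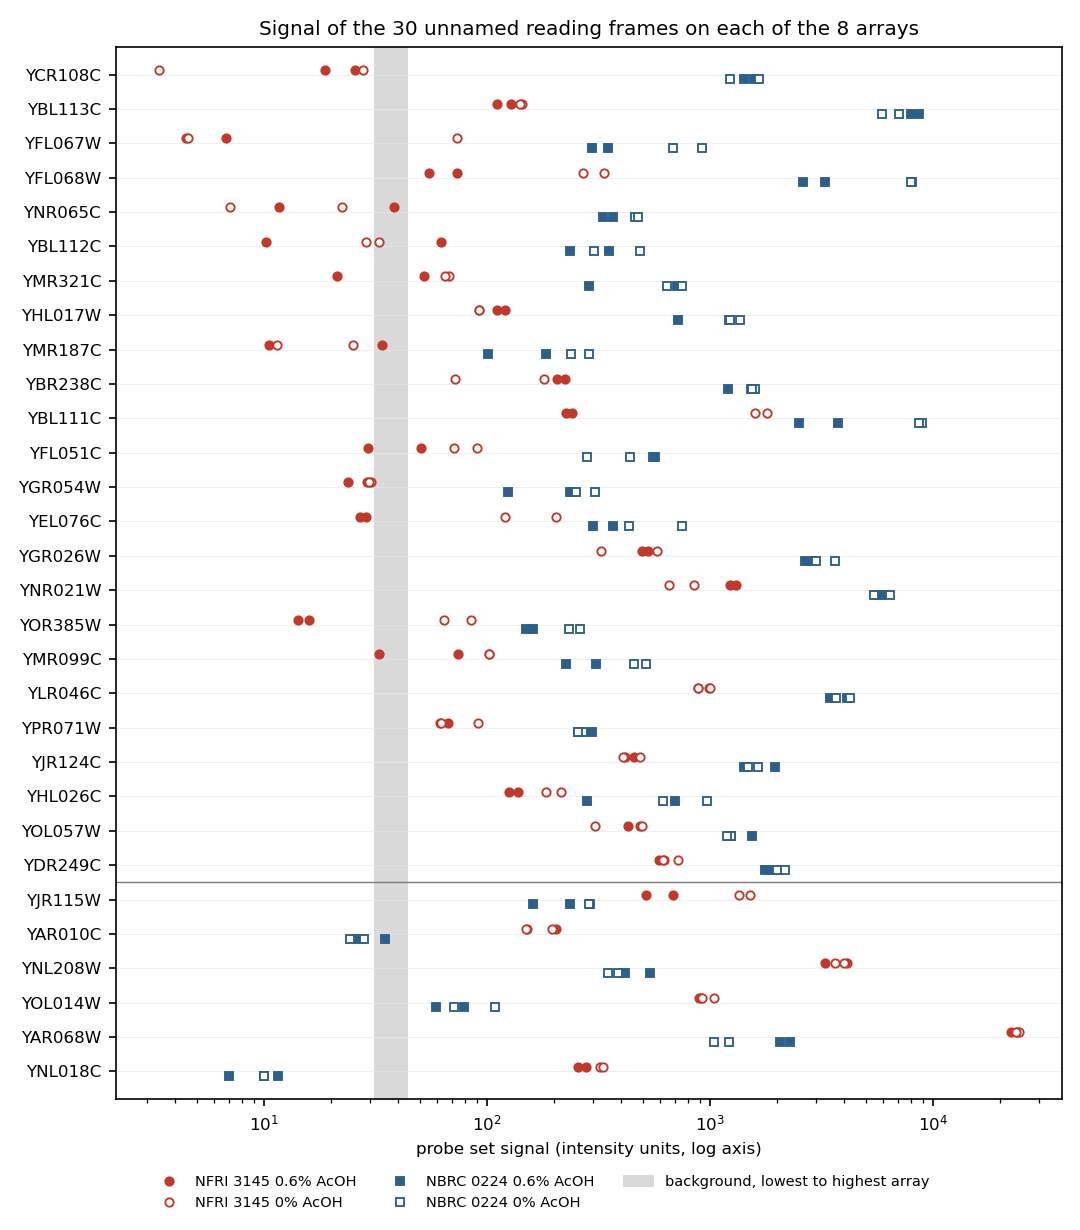
Signal of each of the 30 reading frames (rows) on each of the 8 arrays, in intensity units on a log axis, with circles for NFRI 3145, squares for NBRC 0224, filled symbols for 0.6% AcOH and open symbols for 0% AcOH. Rows run from the most negative to the most positive mean difference, the line separates the 24 lower from the 6 higher frames, and the grey band spans the array backgrounds of 31.5 to 43.9 units.

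The lower frames differed in how much signal was left in NFRI 3145. In 4 of the 24 all 4 NFRI 3145 arrays were below background, in 7 between 1 and 3 arrays were, and in 13 none was. The median difference of the 24 was −2.94 on the log2 scale at 0.6% AcOH and −2.96 at 0% AcOH. That of the 6 higher frames was 3.18 and 3.42. With signals under background raised to it, the medians were −2.48 and −2.73 for the lower frames and 2.89 and 3.31 for the higher frames. Across the 30 frames the median gap between the replicates of a group was 0.17 to 0.34 on the log2 scale. The largest gaps, 4.01 in NFRI 3145 at 0% AcOH and 2.61 in NFRI 3145 at 0.6% AcOH, came from frames with arrays below background. For folds, a signal under its array's background was set to that background, and such a fold is a lower bound, written "at least".

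Several frames with large differences lie at chromosome ends. YCR108C, a small frame of unknown function at the right end of chromosome III, had 18.7 and 25.5 units at 0.6% AcOH in NFRI 3145, against 1423 and 1572 in NBRC 0224. At 0% AcOH it had 27.8 and 3.38 units in NFRI 3145, against 1668 and 1231 in NBRC 0224. All 4 NFRI 3145 arrays were below background, so the frame was at least 35.9-fold lower at 0.6% AcOH and at least 35.2-fold lower at 0% AcOH.

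YBL113C, YBL112C and YBL111C lie side by side at the left end of chromosome II, the first 2 overlapping. YBL113C and YBL111C encode helicase-like proteins of a telomeric Y′ element. YBL113C had 128 and 111 units at 0.6% AcOH and 143 and 141 at 0% AcOH in NFRI 3145, against 7954 and 8689 and 5890 and 7068 in NBRC 0224. It was above background on every array and was 69.6-fold lower at 0.6% AcOH and 45.4-fold lower at 0% AcOH. YBL112C had 62.2 and 10.2 units at 0.6% AcOH and 28.7 and 32.9 at 0% AcOH in NFRI 3145, against 351 and 236 and 303 and 487 in NBRC 0224. The difference was at least 5.78-fold and at least 9.45-fold. YBL111C was above background on every array, with 227 and 240 units at 0.6% AcOH and 1596 and 1810 at 0% AcOH in NFRI 3145, against 2502 and 3754 and 8935 and 8624 in NBRC 0224. Its difference was 13.1-fold at 0.6% AcOH and 5.16-fold at 0% AcOH.

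YEL076C lies at the left end of chromosome V and is also read by a probe set that can hybridise with related transcripts. It had 28.6 and 27.1 units at 0.6% AcOH and 120 and 204 at 0% AcOH in NFRI 3145, against 300 and 369 and 435 and 750 in NBRC 0224. The strains differed by at least 7.98-fold at 0.6% AcOH and by 3.65-fold at 0% AcOH. Probe sets of this kind (names ending in _s_at) measure 6 of the 30 frames, YBL113C, YBL112C, YBL111C, YEL076C, YMR321C and YAR010C. The Y′ frames among them share repeated sequence and are not independent of each other.

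YFL068W and YFL067W are neighbours at the left end of chromosome VI and have no established function. YFL068W had 73.2 and 55.2 units at 0.6% AcOH and 271 and 336 at 0% AcOH in NFRI 3145, against 2602 and 3295 and 8090 and 7993 in NBRC 0224. It was 46.1-fold lower at 0.6% AcOH and 26.7-fold lower at 0% AcOH. YFL067W had 6.76 and 4.47 units at 0.6% AcOH and 4.57 and 73.8 at 0% AcOH in NFRI 3145, against 297 and 350 and 684 and 924 in NBRC 0224. Among the NFRI 3145 arrays only 0% AcOH replicate 2 was above background, which gives at least 7.73-fold and at least 14.8-fold. YMR321C, near the right end of chromosome XIII, had 21.2 and 52.3 units at 0.6% AcOH and 67.8 and 65.2 at 0% AcOH in NFRI 3145, against 714 and 287 and 642 and 747 in NBRC 0224.

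**Figure D2:**
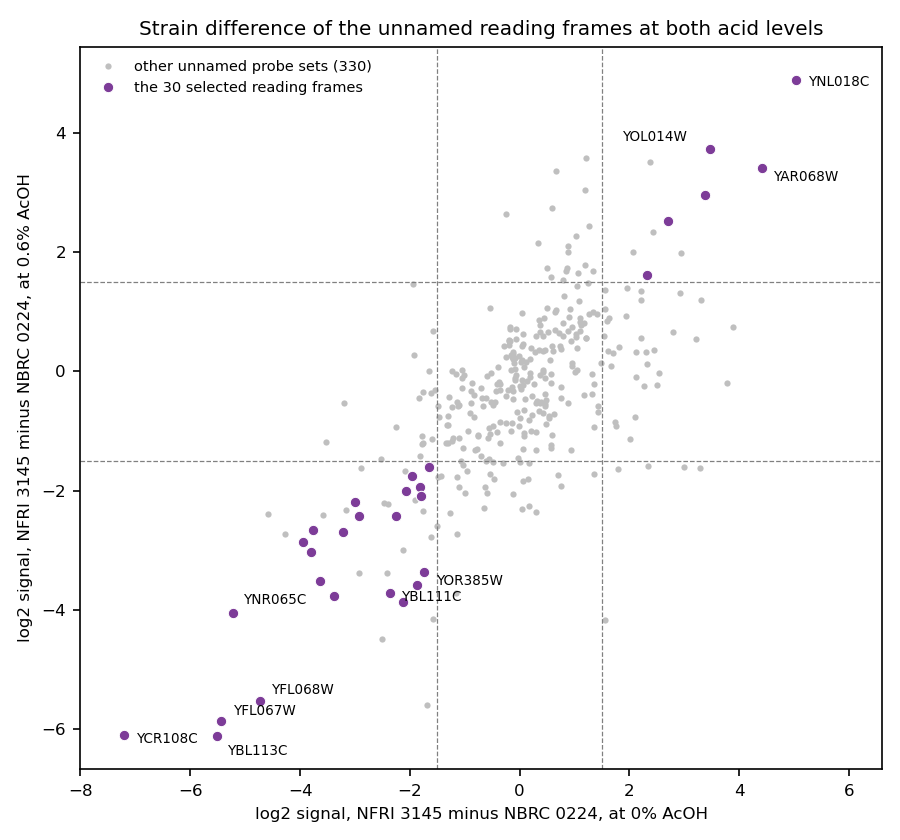
Log2 signal of NFRI 3145 minus NBRC 0224 at 0.6% AcOH (vertical) and at 0% AcOH (horizontal) for the 360 probe sets of unnamed reading frames, with the 30 selected in purple and the other 330 in grey. Dashed lines mark 1.5 in size, and grey points beyond both lines differ in sign between the acid levels or did not exceed 100 units on all 4 arrays of the higher strain.

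By gene order, 9 of the 30 frames were among the 10 outermost protein-coding genes of a chromosome arm in the gene table of the R64 assembly, or 30.0%. These are YCR108C, YBL113C, YBL112C, YBL111C, YFL068W, YFL067W, YEL076C, YMR321C and, of the higher frames, YAR068W. Of the other 218 tested unnamed frames 18 were, or 8.26%, and of the 3878 tested nuclear protein-coding genes 169 were, or 4.36%. No test was made of these shares, and the Y′ frames in the first are related in sequence. The remaining 21 frames were spread along the chromosomes, and 14 chromosomes held at least 1 of the 30.

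Several lower frames encode proteins with a known activity. YGR054W encodes the yeast eukaryotic initiation factor 2A, a protein that can bring initiator tRNA to the ribosome. It had 23.9 and 29.1 units at 0.6% AcOH and 30.3 and 29.6 at 0% AcOH in NFRI 3145, against 236 and 124 and 251 and 306 in NBRC 0224. All 4 NFRI 3145 arrays were below background, and the frame was at least 4.11-fold lower at 0.6% AcOH and at least 6.82-fold lower at 0% AcOH. YMR099C encodes glucose-6-phosphate 1-epimerase, which interconverts the anomers of glucose 6-phosphate. It had 32.7 and 74.2 units at 0.6% AcOH and 102 and 102 at 0% AcOH in NFRI 3145, against 308 and 227 and 457 and 516 in NBRC 0224. YOL057W encodes a dipeptidyl-peptidase III, a zinc enzyme that removes dipeptides from the start of peptides. It had 429 and 484 units at 0.6% AcOH and 494 and 305 at 0% AcOH in NFRI 3145, against 1241 and 1538 and 1240 and 1188 in NBRC 0224, and was 3.03-fold and 3.13-fold lower. YBR238C, whose product is a mitochondrial protein related to Rmd9, a factor for mitochondrial messenger RNAs, had 207 and 224 units at 0.6% AcOH and 181 and 72.3 at 0% AcOH in NFRI 3145. Its NBRC 0224 arrays read 1211 and 1529 at 0.6% AcOH and 1585 and 1543 at 0% AcOH, a difference of 6.33-fold and 13.7-fold.

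A second group encodes known or predicted membrane proteins. YHL017W, whose product resembles the Golgi membrane protein Ptm1, had 120 and 111 units at 0.6% AcOH and 92.2 and 92.5 at 0% AcOH in NFRI 3145, against 1221 and 723 and 1225 and 1361 in NBRC 0224. Its difference was 8.14-fold at 0.6% AcOH and 14.0-fold at 0% AcOH, with every array above background. YNR065C, related to the vacuolar sorting receptor Pep1, had 11.7 and 38.5 units at 0.6% AcOH and 7.05 and 22.4 at 0% AcOH in NFRI 3145, all below background, against 332 and 369 and 460 and 475 in NBRC 0224. It was at least 8.40-fold and at least 11.5-fold lower. YNR021W, whose product is found at the endoplasmic reticulum, was among the brightest lower frames in NFRI 3145. It had 1228 and 1308 units at 0.6% AcOH and 847 and 653 at 0% AcOH there, against 5617 and 5929 and 5469 and 6408 in NBRC 0224. The difference was 4.55-fold and 7.96-fold.

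YLR046C belongs to the family of the sphingoid base exporter Rsb1. Its signals were 887 and 995 units at 0.6% AcOH and 998 and 886 at 0% AcOH in NFRI 3145, against 4102 and 3473 and 3694 and 4227 in NBRC 0224. The replicates of this frame lay close together, and the strains differed by 4.02-fold and 4.20-fold. YGR026W, whose product lies at the cell periphery, ran from 325 to 580 units over the NFRI 3145 arrays, against 2657 to 3654 over the NBRC 0224 arrays. YJR124C, a predicted transporter, ran from 407 to 486 units in NFRI 3145, against 1422 to 1949 in NBRC 0224. YPR071W, a predicted membrane protein, ran from 61.8 to 90.8 units in NFRI 3145, against 256 to 295 in NBRC 0224. In these 3 frames the strains were 3.50-fold to 7.61-fold apart at either acid level.

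The other lower frames have no established function. YMR187C had 33.9 and 10.5 units at 0.6% AcOH and 11.4 and 25.2 at 0% AcOH in NFRI 3145, all below background, against 184 and 101 and 239 and 287 in NBRC 0224. It was at least 3.28-fold lower at 0.6% AcOH and at least 6.45-fold lower at 0% AcOH. YFL051C had 29.3 and 50.4 units at 0.6% AcOH and 90.6 and 71.5 at 0% AcOH in NFRI 3145, against 569 and 558 and 282 and 439 in NBRC 0224. YOR385W had 14.2 and 15.9 units at 0.6% AcOH and 64.4 and 85.2 at 0% AcOH in NFRI 3145, against 149 and 161 and 261 and 233 in NBRC 0224. At 0.6% AcOH 1 NFRI 3145 array of YFL051C and both of YOR385W were below background. YFL051C was 4.37-fold lower at 0% AcOH, and YOR385W was at least 3.72-fold lower at 0.6% AcOH and 3.33-fold lower at 0% AcOH. YHL026C ran from 125 to 216 units in NFRI 3145, against 281 to 969 in NBRC 0224. YDR249C had 625 and 590 units at 0.6% AcOH and 718 and 617 at 0% AcOH in NFRI 3145, against 1772 and 1865 and 2009 and 2179 in NBRC 0224. YDR249C and YOL057W lay nearest inside the threshold, at −1.58 and −1.60 on the log2 scale at 0.6% AcOH and −1.65 and −1.65 at 0% AcOH. Nearest outside were YOL024W, at −1.47 and −2.52, and YLR152C, at −1.75 and −1.44.

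The 6 frames that were higher in NFRI 3145 exceeded 100 units on all 4 arrays of that strain, as the rule required. YAR068W, a frame of unknown function near the right end of chromosome I, was the brightest of the 30. It had 23758 and 22325 units at 0.6% AcOH and 24324 and 23547 at 0% AcOH in NFRI 3145, against 2056 and 2285 and 1045 and 1213 in NBRC 0224. The frame was 10.6-fold higher at 0.6% AcOH and 21.3-fold higher at 0% AcOH, and array signals this bright can be compressed.

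YNL018C, of unknown function, had 277 and 256 units at 0.6% AcOH and 323 and 332 at 0% AcOH in NFRI 3145, against 11.6 and 6.97 and 9.97 and 9.96 in NBRC 0224. All 4 NBRC 0224 arrays were below background, and the frame was at least 7.12-fold and at least 9.47-fold higher in NFRI 3145. YAR010C is the Gag reading frame of a Ty1 retrotransposon, a family with many copies in the genome. It had 151 and 204 units at 0.6% AcOH and 149 and 196 at 0% AcOH in NFRI 3145, against 26.6 and 34.9 and 28.2 and 24.3 in NBRC 0224. The NBRC 0224 arrays were again below background, which gives at least 4.70-fold and at least 4.94-fold.

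YOL014W, of unknown function, had 913 and 892 units at 0.6% AcOH and 1044 and 924 at 0% AcOH in NFRI 3145, against 78.8 and 59.4 and 109 and 71.5 in NBRC 0224, a difference of 13.2-fold and 11.1-fold. YNL208W, of unknown function, had 4126 and 3267 units at 0.6% AcOH and 3627 and 3991 at 0% AcOH in NFRI 3145, against 417 and 538 and 386 and 349 in NBRC 0224. It was 7.75-fold and 10.4-fold higher. YJR115W, a paralog of ECM13, had 518 and 685 units at 0.6% AcOH and 1356 and 1507 at 0% AcOH in NFRI 3145, against 236 and 161 and 289 and 286 in NBRC 0224.

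The response to acid was not the contrast that chose the frames, and it was tested with limma over all 3879 tested genes. A response in one strain shares arrays with the strain differences. The mean effect of acid over both strains is independent of those differences in the design. The rule's minimum of 100 units in the higher strain held at both acid levels, however. A frame falling below it with acid could not be chosen. By that mean effect, 6 of the 30 frames were lower and 1 was higher at 0.6% AcOH, where 11.7% of all tested genes were called lower and 5.70% higher. The 6 were YBL111C, YFL068W, YEL076C, YOR385W, YMR099C and YJR115W, and the higher one was YAR068W (0.44 ± 0.10, SE, limma adjusted p = 0.011). YAR068W was not called without NFRI 3145 0.6% AcOH replicate 1, NFRI 3145 0% AcOH replicate 2 or NBRC 0224 0% AcOH replicate 1 (0.39 to 0.43, adjusted p from 0.054 to 0.07). The median of the 30 was −0.18 on the log2 scale, that of the other 218 tested unnamed frames −0.24, and that of all tested genes −0.09. In 22 of the 30 frames neither this effect nor either strain's response was called. Of all tested genes, 17.4% were called by the mean effect, 13.5% in NFRI 3145 and 8.40% in NBRC 0224. The share of all tested genes called in none of these comparisons was not computed, so the 22 have no reference.

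YBL111C had the largest mean acid effect, −2.19 ± 0.15 on the log2 scale (SE, limma adjusted p = 3.8e-06, 4 arrays at each acid level). It fell in NFRI 3145 by 2.86 ± 0.21 (adjusted p = 1.2e-05) and in NBRC 0224 by 1.52 ± 0.21 (adjusted p = 0.0014). YFL068W fell by 2.25 ± 0.23 in NFRI 3145 (adjusted p = 1.2e-04) and by 1.46 ± 0.23 in NBRC 0224 (adjusted p = 0.0033). In both frames the 0.6% AcOH arrays lay below the 0% AcOH arrays in either strain. Without NBRC 0224 0% AcOH replicate 1 the response of YFL068W in NBRC 0224 was −1.45, with an adjusted p of 0.053.

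In NFRI 3145, 5 of the 30 frames fell and 1 rose, beside 9.67% and 3.82% of all tested genes. YEL076C fell by 2.49 ± 0.33 (SE, limma adjusted p = 6.6e-04) and YOR385W by 2.30 ± 0.29 (adjusted p = 5.3e-04). Both 0.6% AcOH arrays of NFRI 3145 were below background for these 2 frames, so YEL076C was at least 3.76-fold lower and YOR385W at least 1.78-fold lower. YJR115W fell by 1.26 ± 0.25 (adjusted p = 0.0077), and YNR021W rose by 0.77 ± 0.18 (adjusted p = 0.02). The fall of YJR115W was −1.19 (adjusted p = 0.067) without NFRI 3145 0% AcOH replicate 2 and −1.06 (adjusted p = 0.083) without NFRI 3145 0.6% AcOH replicate 1. The rise of YNR021W was no longer called without NFRI 3145 0% AcOH replicate 2 (0.58, adjusted p = 0.17), without 0.6% AcOH replicate 1 (0.82, adjusted p = 0.092) or replicate 2 (0.72, adjusted p = 0.12), or with eBayes without a trend (adjusted p = 0.069).

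In NBRC 0224, 2 frames fell and 1 rose, beside 4.80% and 3.61% of all tested genes. The 2 were YBL111C and YFL068W. YAR068W rose by 0.95 ± 0.14 (SE, limma adjusted p = 0.0025), while its change in NFRI 3145 was −0.06 with an SE of 0.14, at signals so bright that a change can be compressed, so a response there can be missed. The rise was no longer called with eBayes without a trend (adjusted p = 0.053) or with only the 4 arrays of NBRC 0224 (adjusted p = 0.062). The changes of YEL076C, YOR385W and YJR115W in NBRC 0224 were −0.78, −0.67 and −0.56 and did not pass the test. Both changes of YMR099C were negative, −1.05 ± 0.35 in NFRI 3145 and −0.88 ± 0.35 in NBRC 0224. Only their mean of −0.96 ± 0.25 passed the test (adjusted p = 0.021), and it was not called without eBayes' trend or when any of 6 arrays was left out (−1.01 to −0.67, adjusted p from 0.055 to 0.098), which were all but NFRI 3145 0.6% AcOH replicate 2 and NBRC 0224 0.6% AcOH replicate 1. The difference of the 2 responses equals the difference of the values that chose the frames and was not tested.

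Of the Y′ frames, YBL111C and YEL076C fell in NFRI 3145. YBL113C changed by −0.25 ± 0.20 in NFRI 3145 and 0.37 ± 0.20 in NBRC 0224 and YBL112C by −0.29 ± 0.64 and −0.42 ± 0.64, none of which passed the test. The difference between the responses of these frames was not tested.

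**Figure D3:**
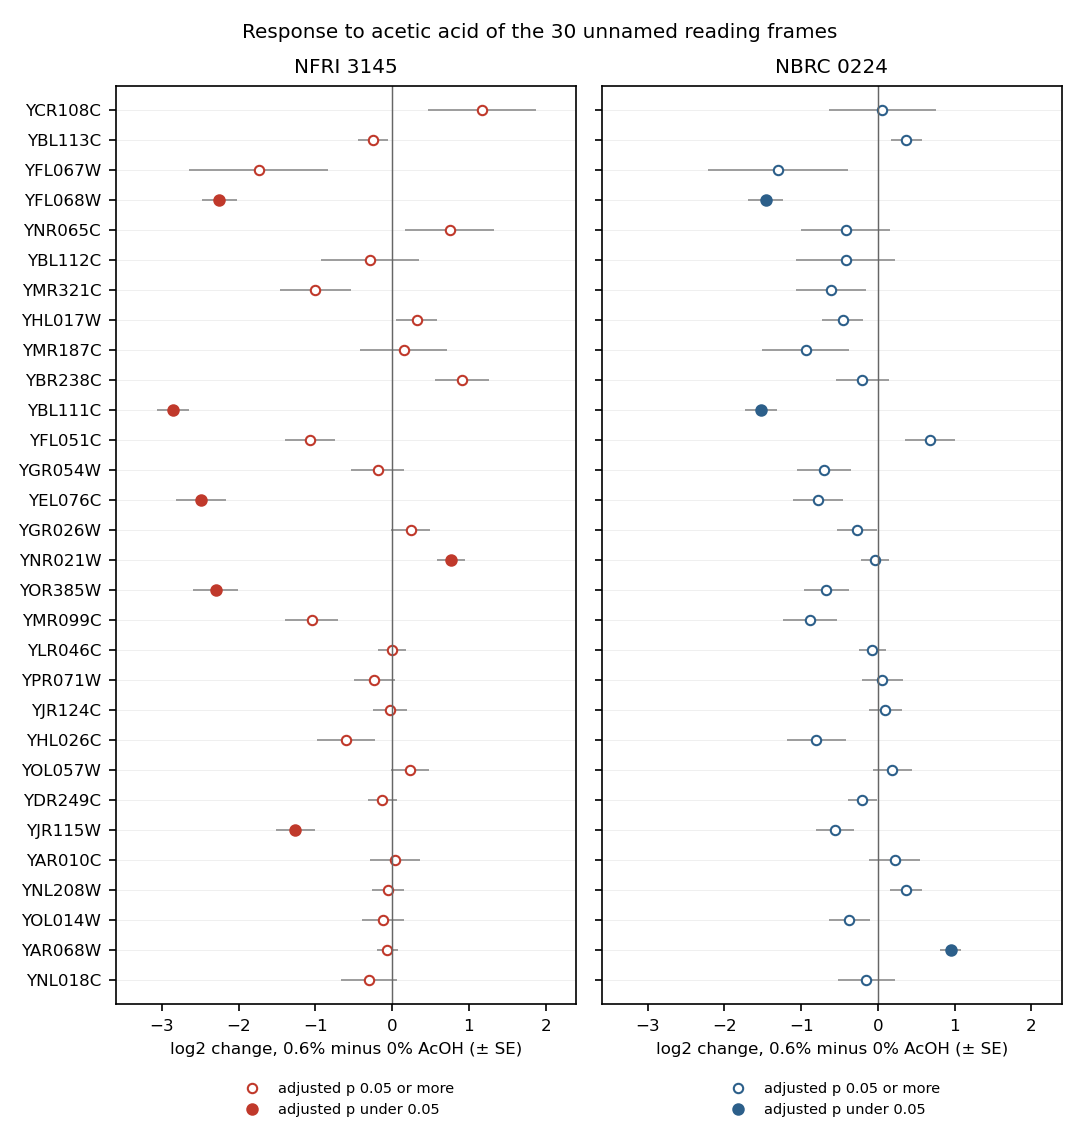
Log2 change of each of the 30 reading frames at 0.6% AcOH minus 0% AcOH in NFRI 3145 (left) and NBRC 0224 (right), in the order of the signal plot, with bars for ± 1 SE of the limma fit (2 arrays per acid level) and filled points for an adjusted p under 0.05. In NFRI 3145 5 frames are called lower and 1 higher, and in NBRC 0224 2 lower and 1 higher.

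The strain difference of the genes next to a frame on the chromosome was tested in the same fit. The 30 frames had 57 adjacent or overlapping genes in the R64 gene table, of which 5 were themselves among the 30, 13 had no probe set with a gene name and 15 were not tested. Of the remaining 24, 5 were higher and 6 lower in NFRI 3145 at 0.6% AcOH, or 45.8% called, where 46.1% of all tested genes were called. At 0% AcOH 7 were higher and 7 lower, or 58.3%, where 50.2% of all tested genes were called. At either acid level 10 of the 24 had the sign of their frame. Among the called ones 4 had the sign of their frame and 7 the opposite sign at 0.6% AcOH, and 7 and 7 at 0% AcOH. The rule had read the strain differences of 3 of the 24, the unnamed frames YAR066W, YNR064C and YDR248C, and had not chosen them. For the 21 genes it did not read, 5 were higher and 5 lower at 0.6% AcOH, or 47.6%, and 7 were higher and 6 lower at 0% AcOH, or 61.9%. Of these 21, 9 at 0.6% AcOH and 10 at 0% AcOH had the sign of their frame.

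In 8 of the 24 adjacent genes the difference was called at both acid levels in the same direction. At single levels 46.1% of all tested genes were called at 0.6% AcOH and 50.2% at 0% AcOH. The share of all tested genes called at both levels in the same direction was not computed, so the 8 have no reference. DUR3, a urea and polyamine transporter gene beside YHL017W, had 15.5 and 33.9 units at 0.6% AcOH and 15.0 and 38.4 at 0% AcOH in NFRI 3145, against 96.0 and 65.9 and 179 and 152 in NBRC 0224. It was at least 1.91-fold lower at 0.6% AcOH and at least 4.06-fold lower at 0% AcOH. The test used signals not raised to background. There the log2 differences were −1.80 ± 0.52 (SE, limma adjusted p = 0.015) and −2.78 ± 0.52 (adjusted p = 9.5e-04). YEL076C-A, which overlaps YEL076C and reads related sequence, differed by −3.39 ± 0.27 on the log2 scale at 0.6% AcOH (adjusted p = 2.8e-06) and by −1.28 ± 0.27 at 0% AcOH (adjusted p = 0.0021). FRE8, related to ferric reductases and next to YLR046C, differed by −1.58 ± 0.29 and −1.68 ± 0.29. MUP1, a methionine permease gene next to YGR054W, differed by −1.13 ± 0.20 and −1.35 ± 0.20. These 4 genes went the same way as their frame.

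The other 4 went the opposite way, among them YAR066W, which the rule had read. HSC82, which encodes an Hsp90 chaperone and lies next to YMR187C, had 23891 and 21937 units at 0.6% AcOH and 17809 and 18491 at 0% AcOH in NFRI 3145, against 8638 and 9983 and 3330 and 3456 in NBRC 0224. It was higher by 1.30 ± 0.13 (limma adjusted p = 9.7e-06) and 2.42 ± 0.13 (adjusted p = 1.1e-07), while YMR187C was below background in NFRI 3145. ERT1, a transcription regulator of genes for nonfermentable carbon sources next to YBR238C, was higher by 0.92 ± 0.23 and 0.72 ± 0.23. RPS25A, a ribosomal protein gene next to YGR026W, was higher by 0.43 ± 0.13 and 0.65 ± 0.13. YAR066W, a subtelomeric frame next to YAR068W, was lower by −1.95 ± 0.24 and −0.63 ± 0.24.

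**Figure D4:**
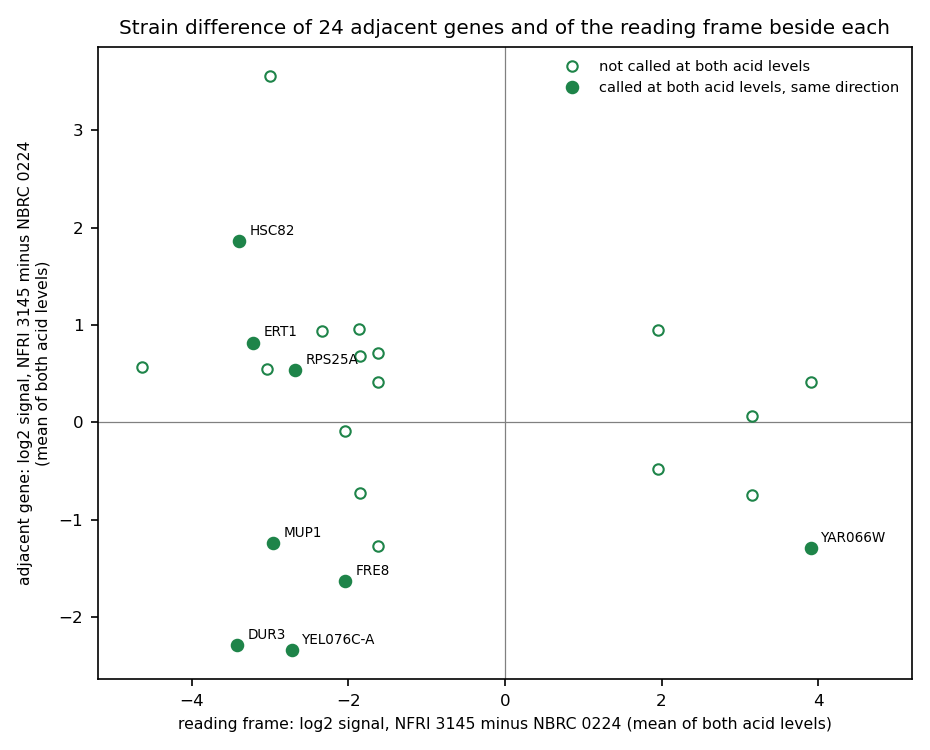
Mean over both acid levels of the log2 signal of NFRI 3145 minus NBRC 0224 for 24 adjacent genes (vertical) against that of the reading frame beside each (horizontal). Filled and named points are the 8 adjacent genes called in the same direction at both acid levels, of which 4 have the sign of their frame and 4 the opposite sign.

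The share of unnamed frames that met the thresholds, 8.33% of 360 probe sets, was beside 9.01% of the 5138 probe sets of genes with other names. Of the 463 probe sets in the second set, 332 were lower and 131 higher in NFRI 3145. The split of 24 lower and 6 higher frames depended on how the arrays were scaled. It was 17 and 10 after quantile normalization and 16 and 12 after centring each array on its median. The frames themselves changed too, and some outside the 30 entered. Of the 30, 23 still met the rule after quantile normalization and 22 after centring. YDR249C, YEL076C, YHL026C, YJR124C, YMR187C, YOL057W and YOR385W met it under neither scaling, and YPR071W did not meet it after centring. Over all tested genes the median strain difference at 0.6% AcOH was −0.23 as deposited, −0.02 after quantile normalization and 0.26 after centring, and at 0% AcOH it was −0.06, 0.05 and 0.35. No strain difference of the 30 frames changed sign under these scalings, a floor at background, a pseudocount or the removal of any 1 array. The rule chose differences of at least 1.5 in size on these same arrays, which made a change of sign unlikely. The kept signs are therefore no support for the differences.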

How the data were processed

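The authors deposited 1 linear intensity per probe set and array, made with GCOS per the submitters' processing notes, with settings not given in the sources used here. The 2% trimmed mean of each deposited array lay between 500.7 and 500.8, so the arrays share a scale by that measure. The median of the tested genes still ran from 115 to 189 units across the arrays. Probe sets were named through the platform annotation and the R64 gene table (12 symbols updated), which also gave the gene order. Its coordinates, and any sequence, were not used here. For genes with more than 1 probe set (47) the one with the highest mean log2 signal was tested. Log2 signals of 8 arrays were fitted as 4 group means with limma 3.58.1 (R 4.3.3, eBayes with trend, 4 residual degrees of freedom) and adjusted by Benjamini-Hochberg over 3879 genes, with calls at an adjusted p under 0.05. The steps were tested on simulated data. The frames, gene lists and tests were chosen with earlier results of these data known. All 30 frames are named. Array values are given for the 10 largest differences in each direction, every frame called under acid and the frames nearest the threshold, and those of some others were added after their values were seen. The adjacent genes named are those called at both acid levels. The array number limits the precision. Alternatives covered scaling, filters, a floor, a pseudocount (32), eBayes without trend, single arrays left out, a replicate block and smaller fits.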

Additional observations from a re-analysis of the deposited data

Results flagged for a closer look

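In 4 frames both 0.6% AcOH arrays lay on one side of the 0% AcOH arrays in NFRI 3145 and on the other side in NBRC 0224. The share of all tested genes with such a pattern was not computed, so the 4 have no reference. For YHL017W in NBRC 0224 the nearest arrays read 1221 units at 0.6% AcOH and 1225 at 0% AcOH. Whether the responses differ was not tested, since their difference is built from the values that chose the frames. The response of NFRI 3145 minus that of NBRC 0224 was −1.75 on the log2 scale for YFL051C, −0.62 for YBL113C, 0.78 for YHL017W and 1.11 for YBR238C. YFL051C had responses of −1.07 ± 0.32 in NFRI 3145 and 0.68 ± 0.32 in NBRC 0224 (SE), with 1 NFRI 3145 array at 0.6% AcOH below background. None of these 4 frames had a called response in either strain.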

How the results depend on the processing

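Of 223 recomputed counts, 194 stayed within 1.5 times the reported one. These include the numbers of frames that the rule itself set. They also include fits without an array of the other strain, which leave the size of a strain's own acid response unchanged. Part of this agreement was therefore fixed in advance. A threshold of 1.0 gave 48 frames, 14 of them higher. Quantile normalization gave 10 higher frames and 4 adjacent genes lower at 0% AcOH, where lower calls over all tested genes went from 1130 to 1008. Median centring gave 12 higher frames, 2 called higher in NFRI 3145 and 2 by the mean effect. It also gave 13 and 8 adjacent genes higher at 0% and 0.6% AcOH. Over all tested genes, centring raised the higher strain calls from 819 to 1347 at 0% AcOH and from 676 to 1159 at 0.6% AcOH. It raised the higher acid calls from 148 to 335 in NFRI 3145 and from 221 to 493 by the mean effect. eBayes without trend left 0 frames higher in NFRI 3145, in NBRC 0224 and by the mean effect. With only the arrays compared, 0 were higher in NBRC 0224. Among genes above background on all arrays, which kept 17 of the 30 frames, 3 were lower in NFRI 3145 and 3 by the mean effect. A floor at background gave 4 lower in NBRC 0224. Calls over all tested genes are not given here for the fits without trend, with fewer arrays or genes, or with the floor. The counts of frames under those settings therefore have no reference.

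With single arrays left out, the frames numbered 29 to 32, of which 5 to 7 were higher. Called in NFRI 3145 were 0 to 3 higher and 4 to 7 lower, in NBRC 0224 1 higher and 1 to 5 lower, and by the mean effect 0 to 3 higher and 5 to 8 lower. Without NFRI 3145 0% AcOH replicate 1, 3 were higher in NFRI 3145 and 3 by the mean effect, and without any other NFRI 3145 array 0 were higher in NFRI 3145. The 2 lower calls in NBRC 0224 became 1 without its 0% AcOH replicate 1 and 5 without its 0.6% AcOH replicate 1. Of adjacent genes, 3 to 8 were higher at 0% AcOH, with 3 without NFRI 3145 0% AcOH replicate 1, 4 without its replicate 2 and 4 without NBRC 0224 0% AcOH replicate 1. Of 16 calls of single frames, 10 held under every alternative run. The mean effect of YAR068W was not called without trend (adjusted p = 0.067), without NBRC 0224 0% AcOH replicate 1 (0.054), NFRI 3145 0% AcOH replicate 2 (0.055) or NFRI 3145 0.6% AcOH replicate 1 (0.070). The cause of these changes was not tested. The shares of all tested genes called with an array left out are not given here. The counts of frames and adjacent genes called in those fits therefore have no reference.

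Deviations of the same replicate number correlated between groups at r of −0.054 to 0.054 across genes. These values show no shared deviation, but cannot tell whether samples of equal number were handled together. With a replicate block 6 frames were lower and 1 higher in NFRI 3145, and 2 and 1 in NBRC 0224. The shares of all tested genes called with the block are not given here, so these counts have no reference. Distances in bases, protein lengths and promoter motifs were not run, and the count of outermost genes was chosen after seeing the data. Among the 5 outermost were 9 frames, or 30.0%, beside 4.59% of the other tested unnamed frames and 1.91% of all tested genes. Among the 20 outermost were 13 frames, or 43.3%, beside 14.7% and 9.67%.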

Other observations

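Named relatives of some frames are on the arrays. They were picked by known relationship once the frames were known, and no test was made. PTM1, the Golgi protein gene related to YHL017W, had 211 and 256 units at 0.6% AcOH and 228 and 201 at 0% AcOH in NFRI 3145, against 1856 and 1648 and 2031 and 1964 in NBRC 0224. It was lower in NFRI 3145 by −2.91 and −3.22 on the log2 scale, as YHL017W was. PEP1, related to YNR065C, ran from 36.1 to 54.8 units over the NFRI 3145 arrays, the lowest one at 0.6% AcOH and below background, against 160 to 271 over the NBRC 0224 arrays. RSB1, related to YLR046C, differed by −3.42 and −1.52. RTA1 of the same family as RSB1 differed the other way, by 0.81 and 1.35. RMD9, related to YBR238C, had 230 and 135 units at 0.6% AcOH and 215 and 157 at 0% AcOH in NFRI 3145, against 96.7 and 100 and 81.6 and 69.1 in NBRC 0224. It was thus higher in NFRI 3145 where YBR238C was lower. ECM13, the paralog of YJR115W, was below background on all 8 arrays.

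Of the telomeric repeat frames examined, 4 on the arrays did not meet the rule. YFL064C had 3.27 and 1.77 units at 0.6% AcOH and 28.2 and 37.0 at 0% AcOH in NFRI 3145, against 93.0 and 145 and 81.9 and 131 in NBRC 0224. YLR462W had 2.16 and 2.13 units at 0.6% AcOH and 18.7 and 28.8 at 0% AcOH in NFRI 3145, against 29.5 and 49.3 and 66.2 and 72.9 in NBRC 0224. All NFRI 3145 arrays of both frames were below background. YFL065C did not follow them at 0% AcOH, with 40.7 and 116 units in NFRI 3145 against 58.7 and 80.9 in NBRC 0224. At 0.6% AcOH it had 18.6 and 22.7 units in NFRI 3145, both below background, against 43.1 and 80.6 in NBRC 0224. YEL075C was below background on all 8 arrays, so its strain difference is unknown.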
